A study of Mus musculus with 4 samples.

Results

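Granzymes and perforin are the killing proteins of cytotoxic lymphocytes, and 10 of their genes were followed here in mouse Th17 cells, CD4 helper cells that make IL-17. The genes were chosen by name: Gzma, Gzmb, Gzmc, Gzmd, Gzme, Gzmf, Gzmg, Gzmk, Gzmm and Prf1, which are 10 of the 55450 genes in the authors' deposited table. RNA had been sequenced from 2 cultures given a retroviral PSIN vector with a guide against Adarb1 (sgAdarb1), set against 2 cultures given the empty PSIN vector. All 4 cultures carried a Cas9 transgene, and per the design text they came from 2 wild-type donor mice, each giving a culture of either kind. Mice were 8 to 12 weeks old, and per the labels' protocols their naive CD4+ T cells were first activated for 24 h with 0.25 µg/mL anti-CD3ε and 1 µg/mL anti-CD28. They were then transduced and kept for 72 h under Th17 conditions, with TGF-β at 0.3 ng/mL and IL-6 at 20 ng/mL. The control vector held no guide. Groups follow the sample titles, since the treatment tag gives both cultures of replicate 1 as empty vector and both of replicate 2 as sgAdarb1.

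Perforin, the product of Prf1, is stored with granzymes in secretory granules and forms pores through which granzymes reach the inside of a target cell. Granzymes are serine proteases with differing specificity: granzyme A and granzyme K cut after basic residues, granzyme B cuts after aspartate and activates caspases, and granzyme M cuts after methionine or leucine. Granzymes C to G are made in mice and have no direct counterpart in humans. Activated CD4 T cells can also make granzyme B, although the proteins are best known from CD8 T cells and natural killer (NK) cells.

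The 10 genes lie on 3 chromosomes (GENCODE release M21, mm10). Gzma (chr13:113093825-113100981) and Gzmk (chr13:113171608-113225908) are neighbours on the minus strand of chromosome 13. Gzmm (chr10:79689020-79695261) and Prf1 (chr10:61297833-61304680) are on the plus strand of chromosome 10. The other 6 lie on the minus strand of chromosome 14, with start sites within 142 kb: Gzmb (chr14:56258838-56262260), Gzmc (chr14:56231441-56234656), Gzmf (chr14:56205263-56211417), Gzmg (chr14:56156582-56159579), Gzmd (chr14:56129556-56132608) and Gzme (chr14:56117626-56120625). All 10 are annotated as protein-coding. The coding sequences show what the 9 granzymes share. The 6 codons around the catalytic histidine were found 1 time in each, and 12 of their 18 bases were the same in all 9. They are shown in capitals with 18 coding bases on either side, from the GENCODE M21 transcripts, 5′ to 3′ on the coding strand:
Gzma: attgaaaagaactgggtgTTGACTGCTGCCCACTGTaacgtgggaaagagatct
Gzmb: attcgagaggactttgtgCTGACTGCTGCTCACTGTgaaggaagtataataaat
Gzmc: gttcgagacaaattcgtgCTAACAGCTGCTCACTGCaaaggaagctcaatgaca
Gzmd: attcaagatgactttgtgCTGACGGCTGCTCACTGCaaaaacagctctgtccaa
Gzme: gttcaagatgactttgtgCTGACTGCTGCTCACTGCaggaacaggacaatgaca
Gzmf: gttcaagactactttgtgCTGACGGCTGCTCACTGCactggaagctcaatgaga
Gzmg: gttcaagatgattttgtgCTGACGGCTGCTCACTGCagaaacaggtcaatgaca
Gzmk: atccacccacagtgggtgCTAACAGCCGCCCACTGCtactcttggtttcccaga
Gzmm: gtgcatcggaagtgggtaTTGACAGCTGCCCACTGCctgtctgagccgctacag
In each gene this window is split by an intron, as in Gzmb, where its 2 ends lie at chr14:56260705-56261130.

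Over the whole coding sequence, those codons included, the granzymes fell into tiers of likeness. Among Gzmd, Gzme, Gzmf and Gzmg, the 6 pairwise coding identities ranged from 83.3% to 93.3%, and Gzmd and Gzme were the most alike pair. Gzmc matched these 4 genes at 69.6% to 71.9%, and Gzmb matched Gzmc at 75.0% and the other 4 at 64.7% to 66.5%. Gzma and Gzmk matched each other at 52.5%, little above the 46.3% to 51.1% of Gzma, Gzmk and Gzmm against Gzmb to Gzmg. Prf1, which is not a protease, matched no granzyme above 30.7%. Its coding sequence is longer, with 1662 bases against 741 to 792, which by itself limits identity over all alignment columns. Likeness between genes bears on the counts, since reads from near-identical stretches cannot be given to 1 gene with certainty. Of the 50-base words in the transcript of Gzmd, 21.9% also occurred in transcripts of another gene, against 20.6% for Gzme, 19.4% for Gzmf, 19.8% for Gzmg and 4.14% for Gzmc. The share was 0% for Gzma, Gzmb, Gzmk, Gzmm and Prf1. At 100 bases the share was at most 0.247% for members other than Gzmf, whose 6.71% was shared with the antisense gene Gm4022. Values of Gzmc to Gzmg are uncertain in this respect, with read length and the handling of reads with several matches not given in the sources used here. The most conserved 60-base stretch of the last 540 coding bases differed at 2 positions among Gzmd, Gzme, Gzmf and Gzmg, in capitals (Gzmd at chr14:56130708-56130767, minus strand):
Gzmd: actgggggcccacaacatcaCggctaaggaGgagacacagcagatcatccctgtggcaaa
Gzme: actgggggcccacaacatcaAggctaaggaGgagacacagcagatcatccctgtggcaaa
Gzmf: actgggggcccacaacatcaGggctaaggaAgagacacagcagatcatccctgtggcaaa
Gzmg: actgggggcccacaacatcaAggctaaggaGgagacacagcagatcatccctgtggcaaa
The least conserved 60-base stretch differed at 26 positions, where Gzmd (chr14:56130214-56130273, minus strand) and Gzme stayed close and Gzmf and Gzmg departed from them:
Gzmd: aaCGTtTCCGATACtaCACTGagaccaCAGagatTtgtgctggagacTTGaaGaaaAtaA
Gzme: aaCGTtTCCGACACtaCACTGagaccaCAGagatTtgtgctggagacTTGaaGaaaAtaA
Gzmf: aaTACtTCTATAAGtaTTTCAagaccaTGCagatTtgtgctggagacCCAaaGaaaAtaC
Gzmg: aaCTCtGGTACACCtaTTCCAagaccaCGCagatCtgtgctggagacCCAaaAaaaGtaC

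The authors' deposited table gives, for each gene, a mean normalized count over the libraries and a log2 fold change with a standard error (SE), but its values for single libraries carry names that match no sample label and were not used. Depth per library was therefore not analysed, and no value per culture is given. Following the design text, fold changes are read as sgAdarb1 over empty vector. The table does not name its numerator, so every sign would turn if the authors used the other order, and had they grouped by the treatment tag, the values would set replicate 2 against replicate 1. Adarb1, the targeted gene, had 2130 normalized counts on average and was at 0.11 ± 0.12 (log2, SE) in the authors' deposited table. A Cas9 cut need not lower the amount of mRNA, so this value settles neither the sign nor whether Adarb1 was disrupted in the sgAdarb1 cultures. Genes of the labelled cell type were present: Cd4 averaged 15286 normalized counts, Cd3e 5150, Il17a 1756 and Il17f 3739 in the authors' deposited table. Genes of other helper cell types were present too, with Il13 at 5434, Gata3 at 3832 and Ifng at 1131 in the authors' deposited table. These 3 were named here after their values were seen. The means do not settle how far the cultures were Th17 cells.

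Gzmb was by far the most abundant of the 10 genes. The authors' deposited table gives it a mean of 38090 normalized counts, 86.6% of the 43966 summed over all 10. Per kb of exon, the scale on which genes of different length can be compared, its level was 26525, which ranked 10 among the 14547 genes that averaged at least 10 counts. That level was 17.7 times the level of Il17a, the signature cytokine gene of these cells, and 11.7 times that of Gzmc, the next granzyme in order. Gzmc stood at 2277 normalized counts per kb, Gzma at 1514, Gzmd at 726 and Gzme at 429. Prf1 was far below Gzmb, at 389 normalized counts per kb, a ratio of 68.2 between protease and pore-former mRNA. Gzmf, at 118, and Gzmg, at 101, lay close together in the lower part of the order. Gzmm was near the bottom at 12.9 normalized counts per kb, and the authors' deposited table gives it 19.0 counts on average. The authors' deposited table gives Gzmk an average of 0.266, equal to 1.06 normalized counts summed over the 4 libraries, so its level was at the limit of detection. With the columns per library left unused, the spread behind this order was not computed, and near neighbours such as Gzmf and Gzmg, or Gzme and Prf1, are not called different.

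**Figure D1:**
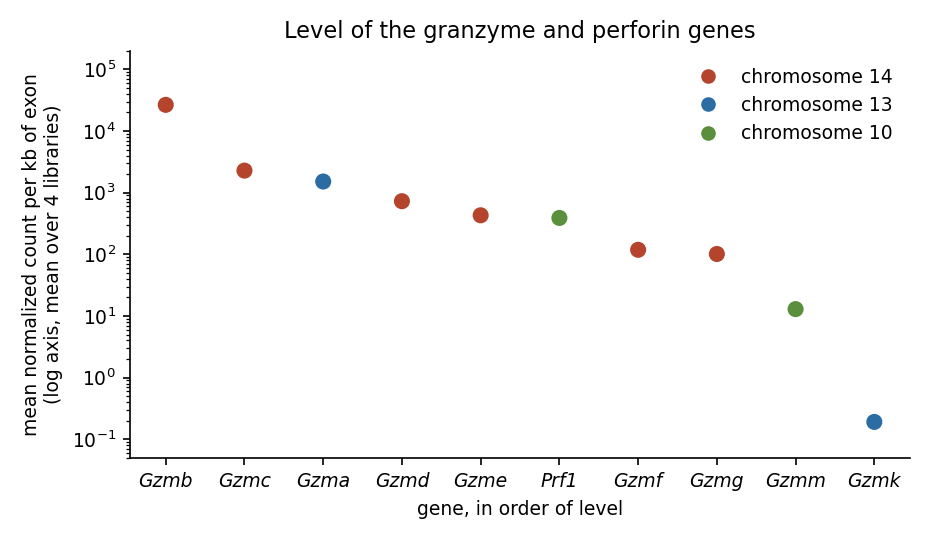
Mean normalized count per kb of exon (log axis) for each of the 10 genes, in order of level and coloured by chromosome; each point is the mean over 4 libraries, and no spread was computed. Gzmb, at 26525, stands apart from the other 9, which range from 2277 down to 0.191.

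No granzyme and no perforin transcript passed the test between sgAdarb1 and empty vector cultures. All 10 genes had a fold change in the authors' deposited table (DESeq2), and 0 of 10 had an adjusted p below 0.05, where 0% of the 29383 genes tested did. At an unadjusted p below 0.05 it was again 0 of 10 members, against 0.208% of all genes (61 genes). By sign, 5 members were positive and 5 negative with a median log2 fold change of -0.06, beside 50.9% positive and a median of 0.00 over all genes tested. Without Gzmk, whose mean is below 10, 4 were positive and 5 negative with a median of -0.14. All genes with a mean of at least 10 were 50.5% positive. Adjusted p was 1.00 for each of the 10 genes in the authors' deposited table (DESeq2), as for 29380 of the 29383. A p of this kind does not show that the levels were equal, and the intervals below give the differences that the data leave possible. The p-values rest on 2 cultures a group and on the authors' own model. Among genes averaging at least 10 counts, the Wald statistics (fold change over SE) had a robust spread of 0.541. That is below the unit spread the test assumes where no gene differs, so the p-values of these genes ran high as a set. The spread does not show that the SE of any 1 member is too large. What made it narrow was not tested.

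**Figure D2:**
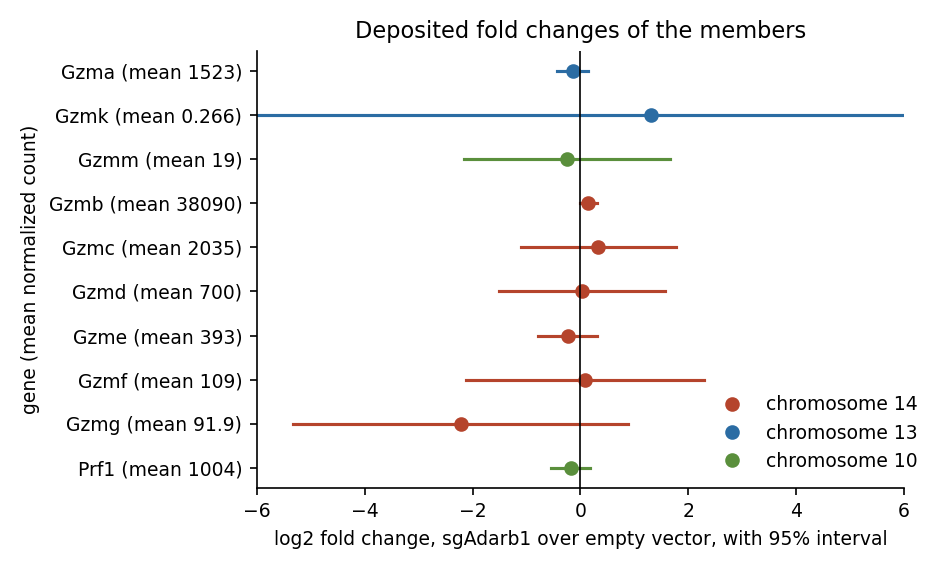
Log2 fold change of each gene, sgAdarb1 over empty vector, as the authors deposited it (point), with the 95% interval computed from its standard error (line); the interval of Gzmk runs past the axis on both sides. Gzma, Gzmb, Gzme and Prf1 have intervals inside -1 to 1, and all 10 intervals include 0.

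Granzyme B, the aspartate-cutting protease, was the best measured member and the one nearest to the threshold. Gzmb was at 0.15 ± 0.08 (log2, SE) in the authors' deposited table, with an unadjusted p of 0.0518 (DESeq2) and 61 genes of smaller p. As a fold this was 1.11, with a 95% interval from 0.999 to 1.23. Under the other order of the groups the same fold would read 0.901, with an interval from 0.810 to 1.00. At this standard error, Gzmb could have passed alone from a log2 difference of 0.37 upward.

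Perforin and granzyme A, the basic-residue protease, were both slightly negative and within their errors. Prf1, with 1004 normalized counts on average, was at -0.18 ± 0.18 (log2, SE) in the authors' deposited table, with an unadjusted p of 0.325 (DESeq2). Its fold was 0.882, with an interval from 0.687 to 1.13. Gzma, with 1523 normalized counts on average, was at -0.14 ± 0.15 in the authors' deposited table, with an unadjusted p of 0.334 (DESeq2). Its fold was 0.906, with an interval from 0.740 to 1.11. For both genes the interval stays within a log2 difference of 1 in either direction. The difference between Gzmb on the positive side and Prf1 or Gzma on the negative side was not tested.

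The remaining chromosome 14 granzymes were measured with very unequal precision. Gzmc had the second highest level of the family, and the authors' deposited table puts it at 0.34 ± 0.73, an interval of 0.467-fold to 3.41-fold around an estimate of 1.26-fold. Gzmd was at 0.03 ± 0.79 in the authors' deposited table, with a fold interval from 0.350 to 2.97. Gzme, its closest relative in sequence, had a smaller error although its mean was lower (393 against 700 normalized counts for Gzmd): the authors' deposited table gives -0.23 ± 0.28, a fold interval from 0.581 to 1.25. Gzmf was at 0.08 ± 1.13 in the authors' deposited table, with a fold interval from 0.229 to 4.88. Gzmg had the lowest estimate of the 10, with 91.9 normalized counts on average: it was at -2.22 ± 1.58 in the authors' deposited table (DESeq2, unadjusted p = 0.162). Its fold of 0.215 had an interval from 0.0250 to 1.85, so neither a large loss nor an increase is left out. Estimates along this locus therefore had both signs, and none stood clear of its own error by a margin that passed the test.

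**Figure D3:**
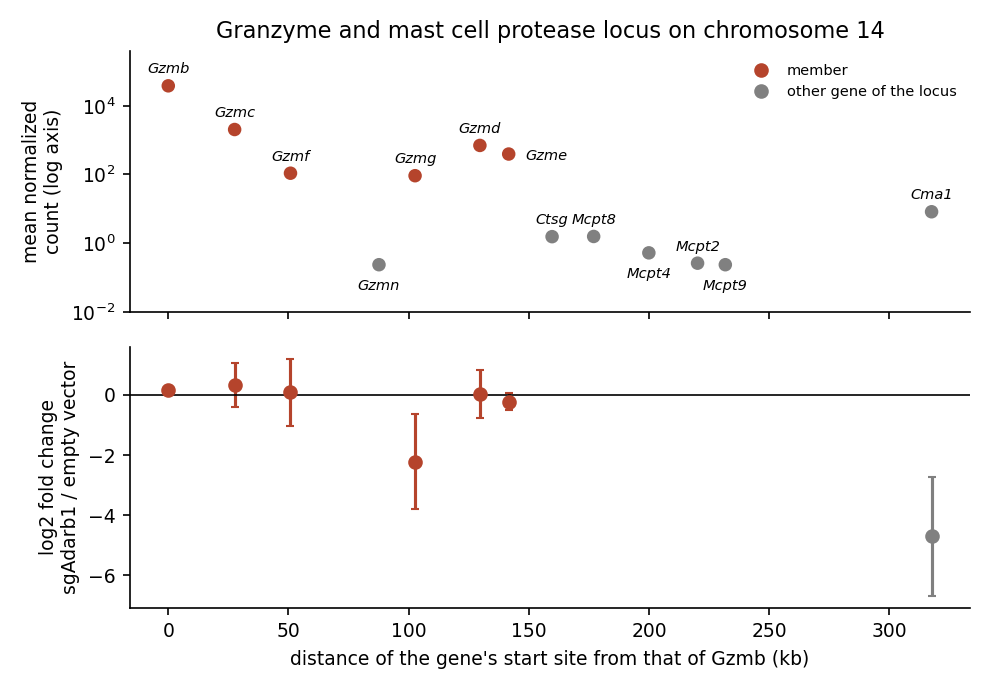
Genes of the chromosome 14 locus by the distance of their start site from that of Gzmb (kb): mean normalized count on a log axis (top) and log2 fold change, sgAdarb1 over empty vector, with 1 standard error for genes with a mean of at least 5 (bottom). Red points are the 6 granzymes of the list and grey points the other proteases of the locus; Gzmb has the shortest bar and Gzmg and Cma1 the lowest estimates, while Mcpt1 and Cma2, listed at 0, are not drawn.

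Set against genes of like abundance, the errors of Gzmc, Gzmd, Gzmf and Gzmg were unusually large. The SE of Gzmc was 6.06 times the median of the 200 genes nearest to it in mean normalized count, that of Gzmd 4.42 times, that of Gzmg 3.49 times and that of Gzmf 2.67 times. Each of the 4 lay at or above percentile 99.5 of those nearby genes. Gzme and Prf1 were also at percentile 99.5, with smaller ratios of 1.23 and 1.19, and Gzma was at percentile 96.5 with a ratio of 1.12. The size of the ratio, not the percentile, thus sets the 4 apart. Gzmb, at 0.943 times, and Gzmm, at 0.984 times, lay below the median of their neighbours. In DESeq2 the SE grows with the fitted spread between libraries of a group, and which libraries were apart was not analysed here. Beside the sharing of sequence, Gzmc had a ratio of 6.06 with 4.14% of its 50-base words shared, Gzmd 4.42 with 21.9%, Gzmg 3.49 with 19.8%, Gzmf 2.67 with 19.4% and Gzme 1.23 with 20.6%. Gzma, Gzmb, Gzmm and Prf1, with 0% shared, had ratios from 0.943 to 1.19. The part of shared reads in the errors was not tested.

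**Figure D4:**
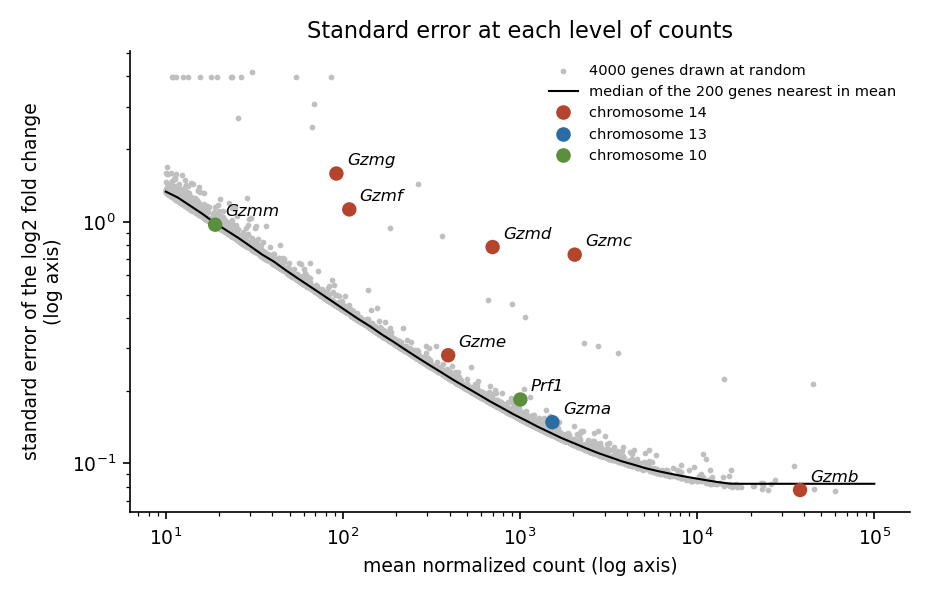
Standard error of the log2 fold change against mean normalized count (both log axes) for 4000 randomly drawn genes (grey), the median of the 200 genes nearest in mean (line) and the 9 members with a mean of at least 10 (coloured by chromosome). Gzmc, Gzmd, Gzmf and Gzmg lie far above the line, at 2.67 to 6.06 times it, and Gzma, Gzmb, Gzme, Gzmm and Prf1 lie at 0.943 to 1.23 times it, Gzme and Prf1 still above nearly all genes at their level.

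The 2 granzymes with few reads allow little to be said. Gzmm, the methionine- and leucine-cutting granzyme, was at -0.25 ± 0.97 in the authors' deposited table, with a fold interval from 0.225 to 3.16. Gzmk had an SE of 4.97 in the authors' deposited table, which carries no information on a difference at its level. Its gene overlaps Esm1 on the opposite strand without shared exon bases. Gzmf overlaps Gm4022 on the opposite strand over 151 exon bases, and the authors' deposited table gives 109 normalized counts for Gzmf against 1.74 for Gm4022. Whether the counting used strand is something not given in the sources used here.

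The genes that build and load the granule were also without a called difference. Among 16 genes of granzyme processing and storage, 8 were positive and 8 negative (median log2 fold change 0.00), with 0 past the test (DESeq2, adjusted p below 0.05) and 0 at an unadjusted p below 0.05. The 3 with the smallest p were the chaperone gene Calr at -0.09 ± 0.08, the granule proteoglycan gene Srgn at 0.08 ± 0.08 and Cst7, which encodes the cathepsin inhibitor cystatin F, at 0.11 ± 0.12 in the authors' deposited table. Serpinb9, an intracellular inhibitor of granzyme B, was at -0.06 ± 0.11 and Ctsc, the protease that activates granzymes, at 0.06 ± 0.17 in the authors' deposited table. These last 2 were named after their values were seen. Granule release genes were likewise split 8 to 8 (16 measured, 1 of 17 not matched by symbol, median 0.00), again with 0 past the test and 0 at an unadjusted p below 0.05. Among them Kif5b, a kinesin heavy chain, was at -0.13 ± 0.09, Stx11, a syntaxin needed for granule fusion, at 0.16 ± 0.11, and Sytl2, a Rab27 effector, at -0.17 ± 0.22 in the authors' deposited table.

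Regulators of cytotoxic gene expression (transcription factors, signal transducers, receptors and the cytokine gene Il21) were 20 positive and 9 negative (29 measured, median 0.04), with 0 past the test and 0 at an unadjusted p below 0.05. Nearest were the signal transducers of IL-2, Stat5b at 0.13 ± 0.10 and Stat5a at 0.12 ± 0.10, and the receptor Notch1 at 0.11 ± 0.09 in the authors' deposited table. The other effectors of lymphocyte killing were 7 positive and 3 negative (10 of 12 with a mean of at least 10, median 0.05), with 0 at an unadjusted p below 0.05. They included the interferon gene Ifng at -0.21 ± 0.19, lymphotoxin Lta at 0.08 ± 0.13 and Tnf at 0.09 ± 0.15 in the authors' deposited table. All genes with a mean of at least 10 were 50.5% positive with a median of 0.00.

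**Figure D5:**
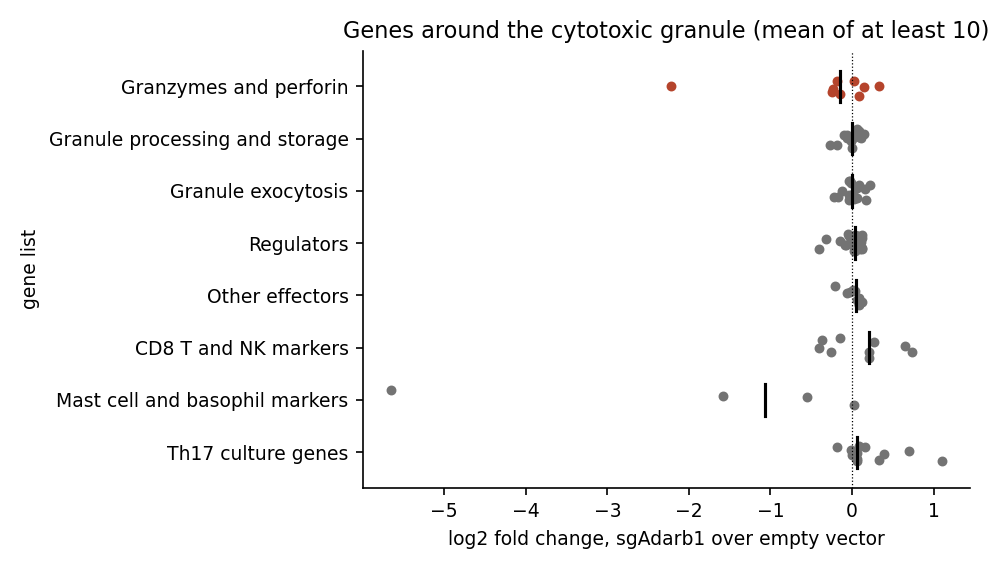
Log2 fold change, sgAdarb1 over empty vector, of each gene with a mean of at least 10 (points, spread vertically for sight) in the granzyme and perforin list and 7 other lists, with the median as a black bar. The medians lie between -1.06 for the 4 mast cell and basophil markers and 0.20 for CD8 T and NK markers, with granzymes and perforin at -0.14; Cpa3, a mast cell gene, is the lowest point and Gzmg the next.

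Markers of other granzyme-making cells were present at low levels. The 16 CD8 T and NK markers summed to 1507 normalized counts, of which Cd8a gave 287 and Cd8b1 218, against 15286 for Cd4 alone, in the authors' deposited table. Among NK receptor genes, the authors' deposited table gives Klrc1 398 normalized counts, the most of the list, Klrk1 222 and Klrd1 83.8. It gives Klrb1c 6.57 and Ncr1 1.24, and Klra8 was listed at 0. Cd8b1, Klrd1, Klrb1c, Ncr1 and Klra8 were named after their values were seen. Among the 9 that averaged at least 10 counts, 5 were positive and 4 negative (median 0.20), with 0 past the test and 0 at an unadjusted p below 0.05. The smallest p belonged to the receptor genes Klrk1 at -0.37 ± 0.30 and Klrc1 at -0.26 ± 0.24 and to the factor Eomes at -0.41 ± 0.36 in the authors' deposited table. Cd8a, named after its value was seen, was at 0.74 ± 0.71 in the authors' deposited table, with an SE 2.69 times that of genes at its level. Summed levels per group could not be given, and the part of such cells in the granzyme values was not tested. In bulk RNA, fewer cells of a type and less RNA per cell cannot be told apart.

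The other protease genes of the chromosome 14 locus, which are Gzmn and genes of mast cell, basophil or neutrophil proteases, had very low counts. The 9 neighbours summed to 12.6 normalized counts, and Mcpt1 and Cma2 were listed at 0. Cma1, mast cell chymase, had 8.20 normalized counts and was at -4.70 ± 1.98 in the authors' deposited table (DESeq2, unadjusted p = 0.0177), and it was named after its value was seen. The mast cell gene Cpa3 lay on the same side at -5.66 ± 1.26 in the authors' deposited table, as did Il1rl1 at -1.58 ± 1.07 and Hdc at -0.55 ± 0.99. Kit, the stem cell factor receptor gene, gave 66.8 of the 151 normalized counts of the mast cell and basophil list and was at 0.03 ± 0.54 in the authors' deposited table; like Gata2, a factor gene at 0.00 ± 1.69, it was named after its value was seen. Of the 4 markers that averaged at least 10 counts, 1 was positive and 3 were negative (median -1.06), beside 50.5% positive over all such genes. With the markers below 10 counts included, most of which had errors larger than their estimates, 10 of 12 were negative. None of the list passed the test (DESeq2, adjusted p below 0.05), and Cpa3 and Cma1 had an unadjusted p below 0.05. Among Th17 culture genes 13 of 15 were positive, with 0 past the test and 2 at an unadjusted p below 0.05 (0.412% of all genes with a mean of at least 10), led by Il17a at 0.70 ± 0.15, with Il17f at 1.11 ± 0.53 and the factor gene Maf at 0.33 ± 0.19 in the authors' deposited table. The authors' deposited table (DESeq2) gives both Il17a and Cpa3 0.0709 as adjusted p, and both were among the 3 genes below 0.05 when the adjustment was limited to genes averaging at least 10 counts. Whether Gzmb differed less than Il17a was not tested.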

How the data were processed

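RNA sequencing of 4 Th17 cultures was analysed from the authors' comparison table. Tools named in the submitters' processing notes are DESeq2 1.18.1, featureCounts and STAR 2.6.1a, with the mm10 build; model formula, annotation and strand setting were not given in the sources used here. Per the file headers, the authors deposited a mean signal (mean over libraries of counts divided by size factors), a log2 fold change and standard error, a Wald score and a p-value with its adjusted p. The score equalled fold change over standard error, and the adjusted p equalled Benjamini-Hochberg over 29383 genes. Another 4 columns of values per library match no sample label and were not used, so depth and the planned refits were not computed. All 55450 identifiers matched GENCODE M21.

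From these values, 95% normal intervals, levels per kb of merged exons, and ratios of each SE to the median of the 200 genes nearest in mean were computed (Python 3.11.15, pandas 2.3.3, SciPy 1.17.1). Coding sequences were aligned globally with Biopython 1.88 (match 1, mismatch -1, gap opening -5, extension -1), and identity is matches over alignment columns. The steps that adjust p were tested on simulated data, with changes larger than the estimates of most members and noise equal to the deposited SE. Such noise spreads the Wald statistics more widely than in the real data. The trial therefore does not show how the scaled setting behaves on these data. Members and lists were chosen with earlier results of these data known. All 10 members were named, and from each other list the 3 genes of smallest unadjusted p with a mean of at least 10. Other list genes fall outside that rule and were named with their values known. Cd4, Cd3e, Cd8b1, Klrd1, Ncr1, Klrb1c, Klra8, Mcpt1 and Cma2 are among them.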

Additional observations from a re-analysis of the deposited data

How the results depend on the processing

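No member passed under any setting run: adjustment limited to genes averaging at least 10 or at least 50 counts, a threshold of 0.1, Wald statistics scaled by their robust spread, and fold changes centred on their median. The smallest adjusted p of a member was 0.0784, for Gzmb with scaled Wald statistics, against 1.00 for Gzmb under the other settings. All 45 single-member values kept their direction, which was fixed in advance. Only the centring moved fold changes, by 0.0017, and the smallest member estimate in size was 0.029, for Gzmd. Over all genes, 0 passed in the deposited adjustment (DESeq2, 61 at an unadjusted p below 0.05), 3 among genes averaging at least 10 counts, 2 among those averaging at least 50, 3 at a threshold of 0.1, 3 after centring and 34 with scaled statistics, 16 positive and 18 negative, a setting that assumes most genes do not differ. The share of Gzmb in the summed level per kb was 82.7% with merged exons and 82.6% with the longest transcript, and the order of the 10 genes was the same. No paired analysis was possible because no per-library column could be matched to a sample. This is also why edgeR and DESeq2 refits and leaving out a replicate were not run. The deposited standard errors, not a known depth, set what was detectable.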

Other observations

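The wide errors of Gzmc, Gzmd and Gzmg were rare in the whole table. Among 10680 genes with a mean of at least 50, 35 genes (0.328%) had an SE at least 3 times the median of the 200 genes nearest in mean, and 3 of the 8 members with that mean were among them. These limits were chosen after the data were seen, and no test was made. The other genes with such errors included the B cell gene Ms4a1, at 12.0 times, and the platelet genes Pf4, at 6.77 times, and Ppbp, at 5.82 times. They also included the helper cell cytokine genes Il17f, at 5.22 times, Il13, at 4.68 times, and Il22, at 3.47 times, and the lineage factor gene Gata3, at 3.76 times. Genes of other kinds were among them, such as the proliferation gene Mki67, at 3.48 times. The mitochondrial genes mt-Nd5, at 3.44 times, and mt-Cytb, at 3.25 times, were so as well. All these examples were named with their values known. Ifng, at 1.28 times, and Il17a, at 1.19 times, were far below that limit, although their errors too exceeded those of nearly all genes at their level (percentiles 99.5 and 99). Which libraries differed for each of these genes was not analysed here.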
